A study of Mus musculus with 6 samples.

Results

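The AP-1 and Egr immediate early genes described here are 10 genes of the 24469 loci in the deposited table, namely *Fos*, *Fosb*, *Fosl1*, *Fosl2*, *Jun*, *Junb*, *Jund*, *Egr1*, *Egr3* and *Ier3*. Each was found by its symbol, and where a symbol named several loci the locus with the highest mean level was taken, which mattered for *Junb* alone, with 2 loci. RNA-Seq was run on 6 libraries of MPCs, the Murine Podocyte Cell Line, which grows with interferon gamma and was differentiated for 10 days at 37 °C after its withdrawal. All cells were serum-starved for 12 h and then kept for 12 h in high glucose (HG, 25 mM). The groups of 2 libraries were HG without FGF1, HG after 1 h with 100 ng/mL of wild-type recombinant human FGF1 (rFGF1WT), and HG after the same time and dose of rFGF1ΔHBS, a mutant with weakened heparan sulfate binding and reduced mitogenic activity. Cells in normal glucose or D-mannitol were not analysed here, so nothing below measures the response to glucose, and each group was sampled at a single time. Nothing in the labels says that replicates came from separate cultures, so p-values measure only the spread between these libraries.

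Immediate early genes are switched on by growth factors and stress without new protein synthesis, and their transcripts typically rise quickly and decay soon after. Fos and Jun proteins pair through leucine zippers to form AP-1, which binds enhancers and promoters of genes for growth, invasion and matrix turnover, while Egr proteins are zinc finger activators and *Ier3* encodes a stress-response protein that influences cell survival and ERK signaling. FGF receptors reach these genes mainly through the ERK cascade, and stress kinases of the ASK1 and JNK arm phosphorylate Jun proteins.

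Expression was deposited as FPKM, fragment counts scaled by transcript length and by the mapped fragments of each library. FPKM summed to between 179594 and 185168 per library. Read totals were not given. In low single-exon loci, FPKM was multiplied by transcript length in kb. Of the nonzero products under 0.08, 34.6% to 36.8% lay within 2% of 1 recurring value per library. If it stands for 1 read pair, each library held 22300000 to 23200000 pairs. The recurring value was searched for only within a narrow preset range, so the search itself bounded this estimate. Of 13 matched podocyte markers, 7 had a mean of at least 1 FPKM, while *Wt1*, a defining podocyte marker, was at most 0.0731 FPKM and so nearly absent. The podocyte markers summed to 347 and 361 FPKM in HG and to between 427 and 443 with FGF1. Of its genes *Nes* was called higher with both proteins, whereas *Synpo* was at 9.58 and 10.2 FPKM in HG and 4.01 to 6.83 with FGF1 (limma adjusted p = 0.0787 and 0.131), and *Podxl* was at 16.7 and 17.6 in HG and 14.8 to 15.8 with FGF1. Of 3 matched proximal tubule markers, 2 were above 1 FPKM, with sums of 62.0 and 73.7 in HG and 40.8 to 50.0 with FGF1. The 5 endothelial markers summed to at most 0.167 FPKM, the 2 matched distal tubule markers to at most 0.0298 FPKM, and the 7 mesangial or fibroblast markers to between 45.8 and 50.6 FPKM. Among leukocyte markers, only a locus that merges *Cd68* with *Eif4a1* had a mean of at least 1 FPKM. The part of these shifts in the results was not tested, and in bulk RNA fewer cells of a type and less RNA per cell cannot be told apart.

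Differences were tested with limma on log2(FPKM + 1) over the 10562 loci with a mean of at least 1 FPKM, and a gene was called when its Benjamini-Hochberg adjusted p was under 0.05. Fold changes are on that scale, which understates changes of low genes. Both FGF1 groups were compared with the same 2 HG libraries, so these comparisons share their controls. With 2 libraries against 2, an exact permutation test cannot go below p = 0.333.

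Among the 10 genes, *Ier3* rose with rFGF1ΔHBS and was the only member called in any comparison. *Fosl1* was higher in all 4 FGF1 libraries than in both HG libraries and missed the threshold narrowly. At the single time sampled, *Fos* and *Egr1* had group means near those in HG, and the rFGF1WT replicates of *Fos* were 2.18-fold apart. The single-exon genes *Jun*, *Junb* and *Jund* were split within groups or listed at 0 and gave no call. Of the 8 members that reached 1 FPKM on average, 0 were called with rFGF1WT (3 at an unadjusted p under 0.05), 1 with rFGF1ΔHBS (3 unadjusted) and 0 between the proteins (1 unadjusted), all by limma. The share of all tested loci called was 6.19% with rFGF1WT, 6.26% with rFGF1ΔHBS and 0.549% between the proteins, and at the unadjusted limit 24.8%, 24.9% and 4.87%. When 1 library was left out, the 654 and 661 loci called against HG became 134 to 195 and 118 to 198, and the 58 between the proteins became 43 to 107. The 2 rFGF1WT libraries lay entirely above or below both HG libraries for 4 of the 8 members, against 58.2% of all loci, and the rFGF1ΔHBS libraries did so for 6, against 57.3%. Between the proteins 3 members did not overlap, against 34.5% of loci. The median log2 fold change of the tested members was 0.02 with rFGF1WT and -0.02 with rFGF1ΔHBS, beside -0.04 over all loci in both.

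**Figure D1:**
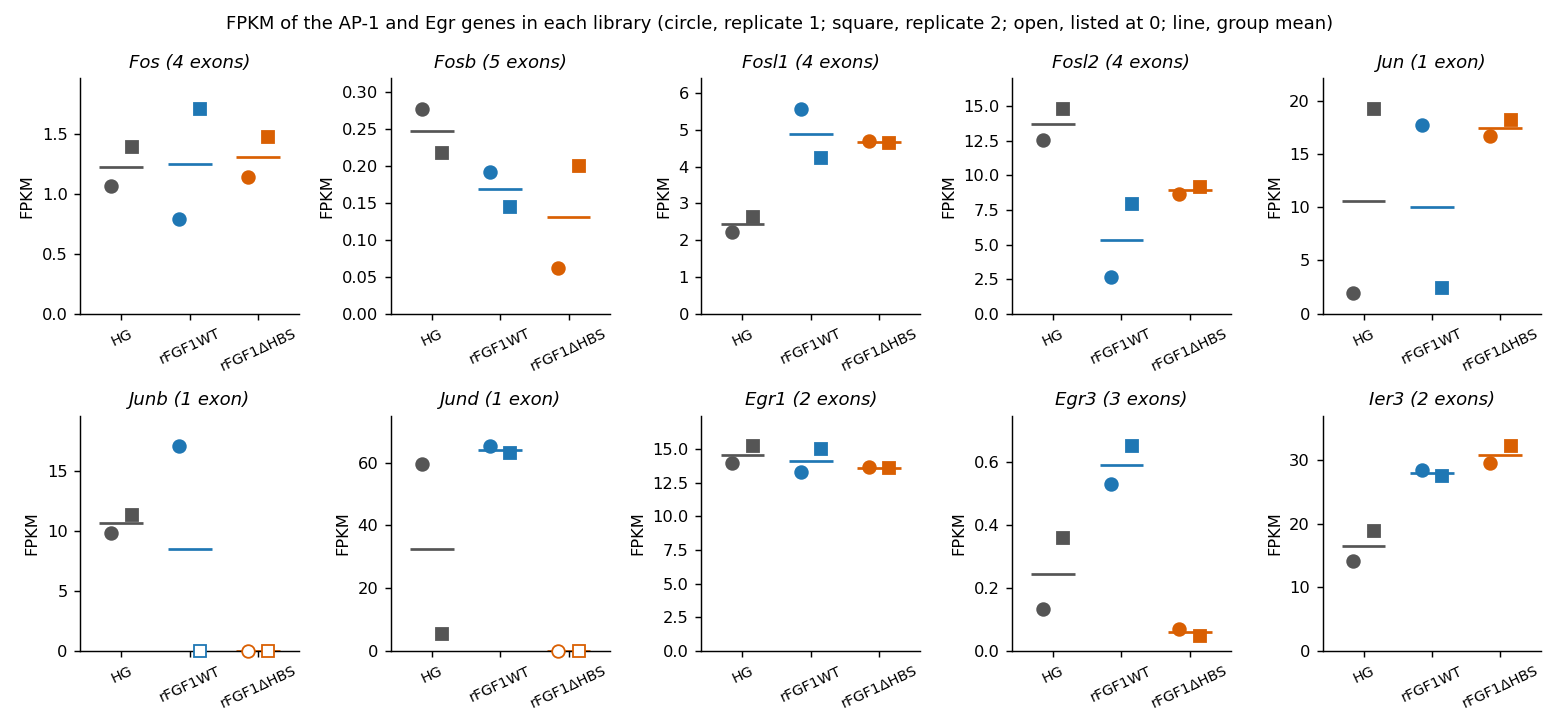
FPKM (vertical axis, from 0, a scale for each gene) of the 10 members in the 2 libraries of each group, with replicates as circles and squares, group means as lines and open symbols for values listed at 0. *Ier3* and *Fosl1* lie higher in all FGF1 libraries than in HG, *Egr1* hardly moves, *Jun* has its lowest value at 1.95, and *Junb* and *Jund* include values of 0.

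RefSeq sequence upstream of the annotated start (GRCm38.p6) was available for 7 of the 10 members. It is shown for *Fos*, which was not called, *Jun*, whose libraries disagreed, and *Ier3*, which was called, in each case 5′ to 3′ on the gene's strand and ending before the first transcribed base. Capitals mark matches, on either strand, to TGANTCA (the AP-1 element), TGACNTCA (a CRE-type element), TGACG (part of it), GCGNGGGCG (the Egr element), CGGAAG (an ETS core), TATAAA or a CArG box. TGACG overlaps TGACNTCA where N is G.
Fos chr12:85473640-85473889 (+): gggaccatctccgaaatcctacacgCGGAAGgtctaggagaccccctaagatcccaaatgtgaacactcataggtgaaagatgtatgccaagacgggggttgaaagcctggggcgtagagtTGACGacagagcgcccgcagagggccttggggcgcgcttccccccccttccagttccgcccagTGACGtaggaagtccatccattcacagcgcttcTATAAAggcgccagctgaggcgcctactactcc
Jun chr4:95052223-95052472 (-): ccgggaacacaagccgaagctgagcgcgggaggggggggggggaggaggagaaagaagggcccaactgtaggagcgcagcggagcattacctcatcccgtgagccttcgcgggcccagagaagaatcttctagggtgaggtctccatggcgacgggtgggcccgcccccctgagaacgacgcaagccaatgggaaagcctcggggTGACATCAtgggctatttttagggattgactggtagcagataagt
Ier3 chr17:35821463-35821683 (+): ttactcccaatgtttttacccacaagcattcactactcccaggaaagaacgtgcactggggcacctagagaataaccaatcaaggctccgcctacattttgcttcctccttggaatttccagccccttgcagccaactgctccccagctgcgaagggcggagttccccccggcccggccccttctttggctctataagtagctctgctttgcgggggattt

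In these windows *Fos* held 2 copies of TGACG, 1 of CGGAAG and 1 TATAAA, and *Jun* held 1 TGACNTCA. *Ier3* held no match to any of these motifs. Of 32851 mouse promoters of 250 bases, 17.8% held TGACG, 7.49% TGACNTCA, 13.6% CGGAAG, 12.4% TATAAA, 6.75% TGANTCA, 4.70% GCGNGGGCG and 1.47% a CArG box. Beyond these 3 genes, GCGNGGGCG was found once upstream of *Fosb* and once upstream of *Fosl2*. *Fosb* also held TGACG, *Fosl2* and *Junb* held CGGAAG, *Junb* held TGACG, and *Jund* held none of the motifs. A match says only that the letters are present, and sequence outside the windows was not searched.

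*Fos* (chr12:85473890-85477273 on GRCm38, plus strand, up to 4 exons) encodes the founding member of the family and is the classic serum-responsive gene. Its levels were 1.07 and 1.39 FPKM in HG, 0.788 and 1.71 with rFGF1WT, and 1.14 and 1.48 with rFGF1ΔHBS. All 3 groups overlapped. The log2 fold change was -0.01 ± 0.24 (SE) with rFGF1WT (limma adjusted p = 0.980) and 0.05 ± 0.24 with rFGF1ΔHBS (adjusted p = 0.924).

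*Fosb* (chr7:19302696-19310051, minus strand, up to 5 exons), a paralog that also activates transcription, was barely detected. It was listed at 0.277 and 0.217 FPKM in HG, 0.192 and 0.145 with rFGF1WT, and 0.0616 and 0.200 with rFGF1ΔHBS. Both FGF1 pairs lay below the HG pair, but all values were under the filter of 1 FPKM. Fitted without the filter, *Fosb* gave -0.09 with rFGF1WT (limma adjusted p = 0.612) and -0.14 with rFGF1ΔHBS (adjusted p = 0.473).

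*Fosl1* (chr19:5447547-5455946, plus strand, 4 exons) encodes Fra-1, which lacks the strong transactivation domain of Fos and is a known ERK-responsive gene. It was at 2.23 and 2.63 FPKM in HG, 5.56 and 4.23 with rFGF1WT, and 4.70 and 4.63 with rFGF1ΔHBS. All 4 FGF1 libraries exceeded both HG libraries, and the proteins overlapped each other. Group means were 2.43 ± 0.284 (SD, n = 2) in HG, 4.89 ± 0.941 with rFGF1WT and 4.66 ± 0.0547 with rFGF1ΔHBS. The log2 fold change was 0.77 ± 0.14 with rFGF1WT (limma adjusted p = 0.0565) and 0.72 ± 0.14 with rFGF1ΔHBS (adjusted p = 0.0624), so neither passed. After median-ratio scaling or quantile normalization *Fosl1* was called with rFGF1WT (adjusted p = 0.0482 and 0.0489). It was not called without a filter (0.114), with only the 4 libraries compared (0.117) or without any 1 library (0.0703 to 0.187). The proteins differed by -0.05 ± 0.14 (adjusted p = 1.00). On the same reading of 1 pair, the *Fosl1* values rest on 96 to 231 read pairs. *Ccdc85b*, on the opposite strand, overlaps the *Fosl1* gene, and whether counting used strand was not given.

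*Fosl2* (chr5:32135801-32157842, plus strand, up to 4 exons) encodes Fra-2 and was the most abundant Fos family gene in every library except the first rFGF1WT library, in which *Fosl1* was higher. It was at 12.6 and 14.8 FPKM in HG, 2.66 and 7.94 with rFGF1WT, and 8.67 and 9.16 with rFGF1ΔHBS. Both FGF1 groups lay below HG without overlap, and the rFGF1WT libraries lay below those of rFGF1ΔHBS. The rFGF1WT replicates were 2.99-fold apart, and the log2 fold change of -1.36 ± 0.45 did not pass (limma adjusted p = 0.166). Without the first rFGF1WT library the log2 fold change was -0.71 (adjusted p = 0.121), and without the second it was -2.00 (adjusted p = 0.0286). With rFGF1ΔHBS the log2 fold change was -0.57 ± 0.45 (adjusted p = 0.494), and between the proteins it was 0.79 ± 0.45 (adjusted p = 0.905). The latter was 0.15 without the first rFGF1WT library and 1.44 without the second (adjusted p = 0.995 and 0.0736). Summed over its 4 genes, the Fos family was at 16.2 and 19.0 FPKM in HG, 9.20 and 14.0 with rFGF1WT, and 14.6 and 15.5 with rFGF1ΔHBS.

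**Figure D2:**
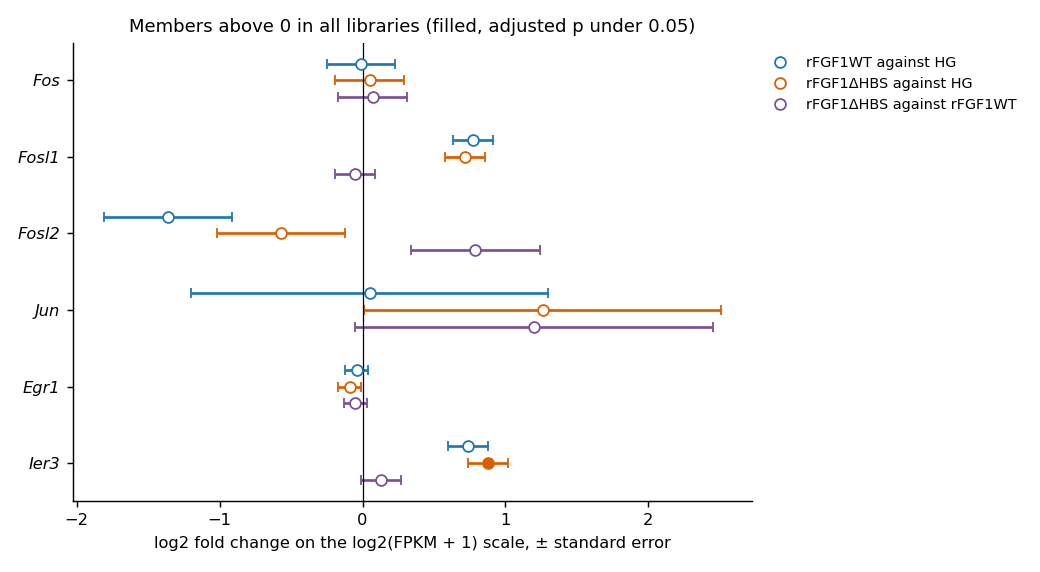
Log2 fold change on the log2(FPKM + 1) scale with its standard error (horizontal axis) for the 6 tested members above 0 in all libraries, in 3 comparisons. Only *Ier3* with rFGF1ΔHBS, at 0.88, is filled for an adjusted p under 0.05, *Fosl1* sits at 0.77 and 0.72, and the bars of *Jun* span more than those of any other gene shown.

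*Jun* (chr4:95049034-95052222, minus strand, 1 exon) encodes c-Jun, the main JNK substrate within AP-1. It was at 1.95 and 19.2 FPKM in HG, 17.7 and 2.44 with rFGF1WT, and 16.7 and 18.2 with rFGF1ΔHBS. The other 4 libraries were between 16.7 and 19.2 FPKM, while 1 library in HG and 1 with rFGF1WT were far lower, so replicates stood 9.84-fold apart in HG and 7.24-fold apart with rFGF1WT. The log2 fold change was 0.05 ± 1.25 with rFGF1WT (limma adjusted p = 0.985) and 1.26 ± 1.25 with rFGF1ΔHBS (adjusted p = 0.585). Its direction with rFGF1ΔHBS turned without the first HG library, to -0.13. *Junos*, on the opposite strand of *Jun*, was at 0.0197 to 0.0741 FPKM.

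*Junb* (chr8:84976910-84978718, minus strand, 1 exon), whose protein can restrain c-Jun, was at 9.84 and 11.3 FPKM in HG and at 17.0 and exactly 0 with rFGF1WT. It was listed at 0 in both rFGF1ΔHBS libraries. The 2 rFGF1WT values lay on either side of HG, and with rFGF1ΔHBS both lay below it. A second locus with the symbol reached 0.0295 FPKM in 1 HG library and was at 0 in the others. The limma adjusted p was 0.576 with rFGF1WT, 0.227 with rFGF1ΔHBS and 0.905 between the proteins. No fold change is given against groups listed at 0. With both rFGF1ΔHBS values at 0 that group has no spread, so a fit without 1 rFGF1WT library leaves only the spread between the HG libraries. Without the first rFGF1WT library the adjusted p was 0.0121 for both FGF1 comparisons with HG. Without the second it was 0.0122 for rFGF1ΔHBS and 0.0102 between the proteins.

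*Jund* (chr8:70698949-70700616, plus strand, 1 exon) encodes the Jun protein associated with resting cells and was the most abundant member in 3 of the 6 libraries. Its second HG library, at 5.33 FPKM, was 11.2-fold below the first, at 59.5. With rFGF1WT it was at 65.1 and 62.9 FPKM, and both rFGF1ΔHBS libraries were listed at exactly 0. The proteins thus lay on opposite sides of HG, as at 1.48% of tested loci. The adjusted p was 0.408 with rFGF1WT, 0.107 with rFGF1ΔHBS and 0.345 between the proteins in limma. That between the proteins was 0.00296 when the HG libraries were not in the fit. With both rFGF1ΔHBS values at 0 that group has no spread, so a fit without an HG library leaves little spread for *Jund*. Leaving out the first HG library gave 0.00966, 0.0132 and 0.00372 in the same order, and leaving out the second gave 0.00401 for rFGF1ΔHBS and 0.00275 between the proteins. *Gm11175*, antisense to *Jund*, was at 0.117 and 0.0622 FPKM in HG and at most 2.79e-05 FPKM in the other 4 libraries. The 3 Jun genes together came to 71.3 and 35.8 FPKM in HG, 99.8 and 65.4 with rFGF1WT, and 16.7 and 18.2 with rFGF1ΔHBS, where *Jun* alone supplied the sum.

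The study also measured *Jund* by real-time PCR in podocytes with HG, HG plus rFGF1WT and HG plus rFGF1ΔHBS. The primer pair is printed here to show which part of the gene it amplifies. The results of that PCR are not analysed here.
Jund-F chr8:70699818-70699837 (+): ccatcgacatggacacgcaa
Jund-R chr8:70699950-70699969 (-): cagctcggtgttctggcttt
On GRCm38 the primers span 152 bases, from base 870 of the 1668-base transcript, within the only exon.

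Exact zeros made up 5 of the 60 values of the members, and both members with a 0 belong to the 3 that have 1 exon. The 7 members with more exons had none. This split also held across the table. Exons were counted in the transcripts listed for each locus, not over all transcripts of its gene. Of the 466 tested single-exon loci, 49.4% were at 0 in at least 1 library. The share was 6.93% with 2 exons, 0.205% with 3 to 5 exons and 0.0131% with 6 or more. For 168 tested loci no exon number was found, and 17.9% of these had a 0. In 45.1% of single-exon loci a group had 1 replicate at 0 and 1 above it, as *Junb* did with rFGF1WT. Replicates at least 4-fold apart on the tested scale were found in 40.1% of single-exon loci. In the classes with more exons the shares were 22.4%, 4.66% and 0.263%, and without an exon number 24.4%. Each library had 18.7% to 21.5% of single-exon loci at 0 across the 6 libraries. The median SE was 0.43 for single-exon loci and 0.09 for loci with 6 or more exons. What a 0 stands for was not given.

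**Figure D3:**
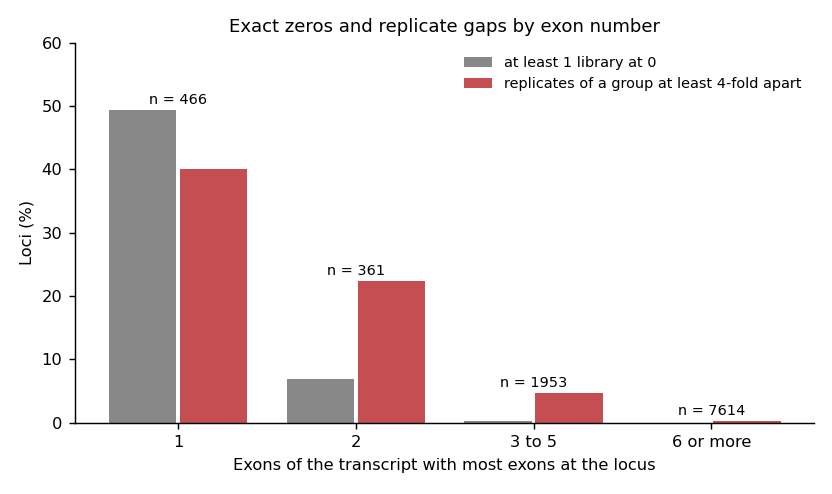
Percent of tested loci (vertical axis) with at least 1 library at 0 (grey) and with replicates of a group at least 4-fold apart (red), by the number of exons. Both shares are highest for single-exon loci, at 49.4% and 40.1%, the class of *Jun*, *Junb* and *Jund*.

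*Egr1* (chr18:34859823-34864984, plus strand, 2 exons) encodes a zinc finger factor induced by growth factors through ERK. It was at 14.0 and 15.2 FPKM in HG, 13.3 and 15.0 with rFGF1WT, and 13.7 and 13.6 with rFGF1ΔHBS. The values overlapped between HG and rFGF1WT, and the rFGF1ΔHBS pair lay just under HG. The log2 fold change was -0.04 ± 0.08 with rFGF1WT (limma adjusted p = 0.775) and -0.09 ± 0.08 with rFGF1ΔHBS (adjusted p = 0.549). This SE was the smallest among the tested members.

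*Egr3* (chr14:70077203-70082614, plus strand, up to 3 exons) encodes a paralog of the Egr1 factor and was under 1 FPKM in every library. It was at 0.133 and 0.360 FPKM in HG, 0.531 and 0.650 with rFGF1WT, and 0.0689 and 0.0494 with rFGF1ΔHBS. The proteins lay on opposite sides of both HG libraries, as at 1.19% of all loci. Without the filter the difference between the proteins was -0.59 ± 0.10 (limma adjusted p = 0.428), and against HG it was 0.36 with rFGF1WT (adjusted p = 0.228) and -0.23 with rFGF1ΔHBS (adjusted p = 0.421).

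*Ier3* (chr17:35821684-35822923, plus strand, 2 exons) was at 14.2 and 18.8 FPKM in HG, 28.4 and 27.4 with rFGF1WT, and 29.5 and 32.1 with rFGF1ΔHBS. No FGF1 library overlapped HG, a pattern of both proteins above HG shared by 17.1% of tested loci. Group means were 16.5 ± 3.23 (SD, n = 2) in HG, 27.9 ± 0.702 with rFGF1WT and 30.8 ± 1.81 with rFGF1ΔHBS. *Ier3* rose by 0.88 ± 0.14 on the log2 scale with rFGF1ΔHBS (limma adjusted p = 0.0473), or 1.87-fold by means. With rFGF1WT the log2 fold change was 0.74 ± 0.14 (adjusted p = 0.0656), or 1.70-fold by means, and did not pass. The proteins differed by 0.13 ± 0.14 (adjusted p = 0.910), which does not show that they act alike. Over 17 alternatives the adjusted p with rFGF1ΔHBS ran from 0.0398 to 0.158 and was under 0.05 in 9. It was 0.0773 without the first HG library and 0.103 to 0.158 without any 1 of the 4 FGF1 libraries.

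Across the 6 libraries, Pearson's r of log2(FPKM + 1) with *Ier3* was highest for *Gm5864* (0.996), *Tars* (0.995) and *Pla2g4a* (0.995), and 241 of 10210 loci exceeded 0.95. For *Fosl1* the nearest were *Gnaq* (0.998), *Plod2* (0.997) and *Eif2b3* (0.995), with 233 loci above 0.95. *Fosl2* was nearest to a locus that merges *Tgfbr3* and *Gm43422* (0.996), to *Tsc22d3* (0.993) and to *Cep192* (0.991), with 67 loci above 0.95. *Tsc22d3*, a glucocorticoid-induced gene, was at 10.0 and 9.83 FPKM in HG, 1.78 and 5.88 with rFGF1WT, and 6.75 and 6.98 with rFGF1ΔHBS, and so had its lowest value in the same library as *Fosl2*. With 6 libraries in 3 groups these values describe shared patterns and carry no test.

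The gene lists below were written with earlier results of these data known. A count beside the share over all loci is therefore no test of a list. On a list of 39 other immediate early genes, 36 were tested. Of these 7 rose with rFGF1WT, beside 3.26% of all loci, and 6 with rFGF1ΔHBS, beside 3.37%. None was called lower, and the median log2 fold change was 0.27 and 0.32. *Maff*, a small Maf protein that pairs with AP-1 factors, was at 1.35 and 1.71 FPKM in HG and at 4.70 to 5.46 in the FGF1 libraries, a log2 fold change of 1.35 with rFGF1WT (limma adjusted p = 0.0114) and 1.21 with rFGF1ΔHBS (adjusted p = 0.0142). *Plk3*, a stress-responsive kinase, rose from 4.22 and 4.43 FPKM to 12.4 and 12.6 with rFGF1WT and 11.4 and 11.5 with rFGF1ΔHBS (adjusted p = 0.00345 and 0.00464). *Phlda1*, a growth factor-induced gene, was at 14.7 and 18.0 FPKM in HG and at 40.1 to 43.7 with FGF1, with log2 fold changes of 1.30 and 1.31 (adjusted p = 0.0159 and 0.0164). *Cyr61*, which encodes a secreted matrix protein, went from 49.0 and 50.4 FPKM to between 110 and 120, a log2 fold change of 1.19 with either protein (adjusted p = 0.00661 and 0.00764). In these 4 genes HG and FGF1 libraries did not overlap.

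With rFGF1WT the count was 6 without the first HG library, 7 without the second, 2 without either rFGF1WT library and 3 without either rFGF1ΔHBS library. With rFGF1ΔHBS it was 6 without either HG library, 5 without either rFGF1WT library, and 3 and 2 without the first and the second rFGF1ΔHBS library. Between the proteins 0 were called, and 0 had an unadjusted p under 0.05. Like *Junb*, the single-exon genes *Ier2*, *Ier5* and *Ier5l*, named after their values were seen, had zeros in a replicate: *Ier2* was at 11.1 and 0 FPKM in HG, 0 and 0 with rFGF1WT, and 0 and 19.5 with rFGF1ΔHBS. The other tested single-exon gene of the list, *Rhob*, named likewise, was at 33.5 to 42.9 FPKM with no 0.

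AP-1 partners of the ATF, BATF, JDP and MAF families had 14 tested genes of 20, of which 2 rose with each protein, *Maff* and *Atf4*. Over all loci 3.26% were called higher with rFGF1WT and 3.37% with rFGF1ΔHBS. *Atf4*, the main factor of the amino acid and ER stress response, was at 77.1 and 85.4 FPKM in HG and 117 to 128 with FGF1, a log2 fold change of 0.58 and 0.59 (limma adjusted p = 0.0308 for both). When 1 library was left out, 0 to 1 genes of the list were called with rFGF1WT and 0 to 2 with rFGF1ΔHBS. The list median was 0.24 and 0.15. Among the Egr relatives, *Nab2*, a corepressor of Egr proteins, was called, and *Nab1* was the other tested gene of 5 listed. *Nab2* was at 17.3 and 17.8 FPKM in HG and 22.4 to 23.9 with FGF1, with log2 fold changes of 0.38 and 0.40 (adjusted p = 0.0411 and 0.0358). *Nab2* was not called in any of the fits that left out 1 library.

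Textbook AP-1 target genes, a list that holds secreted proteases and their receptors among others, had 19 tested genes of 27. With each protein 7 rose, beside 3.26% of all loci with rFGF1WT and 3.37% with rFGF1ΔHBS. None was called lower, and the median log2 fold change was 0.72 with rFGF1WT and 0.67 with rFGF1ΔHBS. *Ccnd1*, which encodes the G1 cyclin D1, had the largest change, from 5.53 and 5.05 FPKM to between 39.1 and 42.5, and log2 fold changes of 2.70 and 2.73. *Plau*, the urokinase protease, was at 18.5 and 14.9 FPKM in HG and 33.1 to 38.9 with FGF1, with log2 fold changes of 1.03 and 1.13 (limma adjusted p = 0.0252 and 0.0219). *Mmp9*, a matrix metalloproteinase, was at 1.21 and 1.17 FPKM in HG and 2.86 to 3.50 with FGF1, with log2 fold changes of 0.88 and 0.93 (adjusted p = 0.0251 and 0.0231). *Spp1*, which encodes osteopontin and was read from a locus merged with *Gm42793*, rose as well. When a library was left out, any of the 6, the count was 2 to 3 with rFGF1WT and 2 to 5 with rFGF1ΔHBS. Between the proteins 0 genes were called, with 1 at an unadjusted p under 0.05. Textbook Egr1 target genes had 11 tested of 15. *Nab2* and *Fn1*, the matrix protein fibronectin, rose with both proteins, beside the same shares of all loci. *Fn1* was at 117 and 121 FPKM in HG and 150 to 164 with FGF1, a log2 fold change of 0.34 and 0.41 (adjusted p = 0.0439 and 0.0302). The list had 0 to 1 calls when a library was left out.

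**Figure D4:**
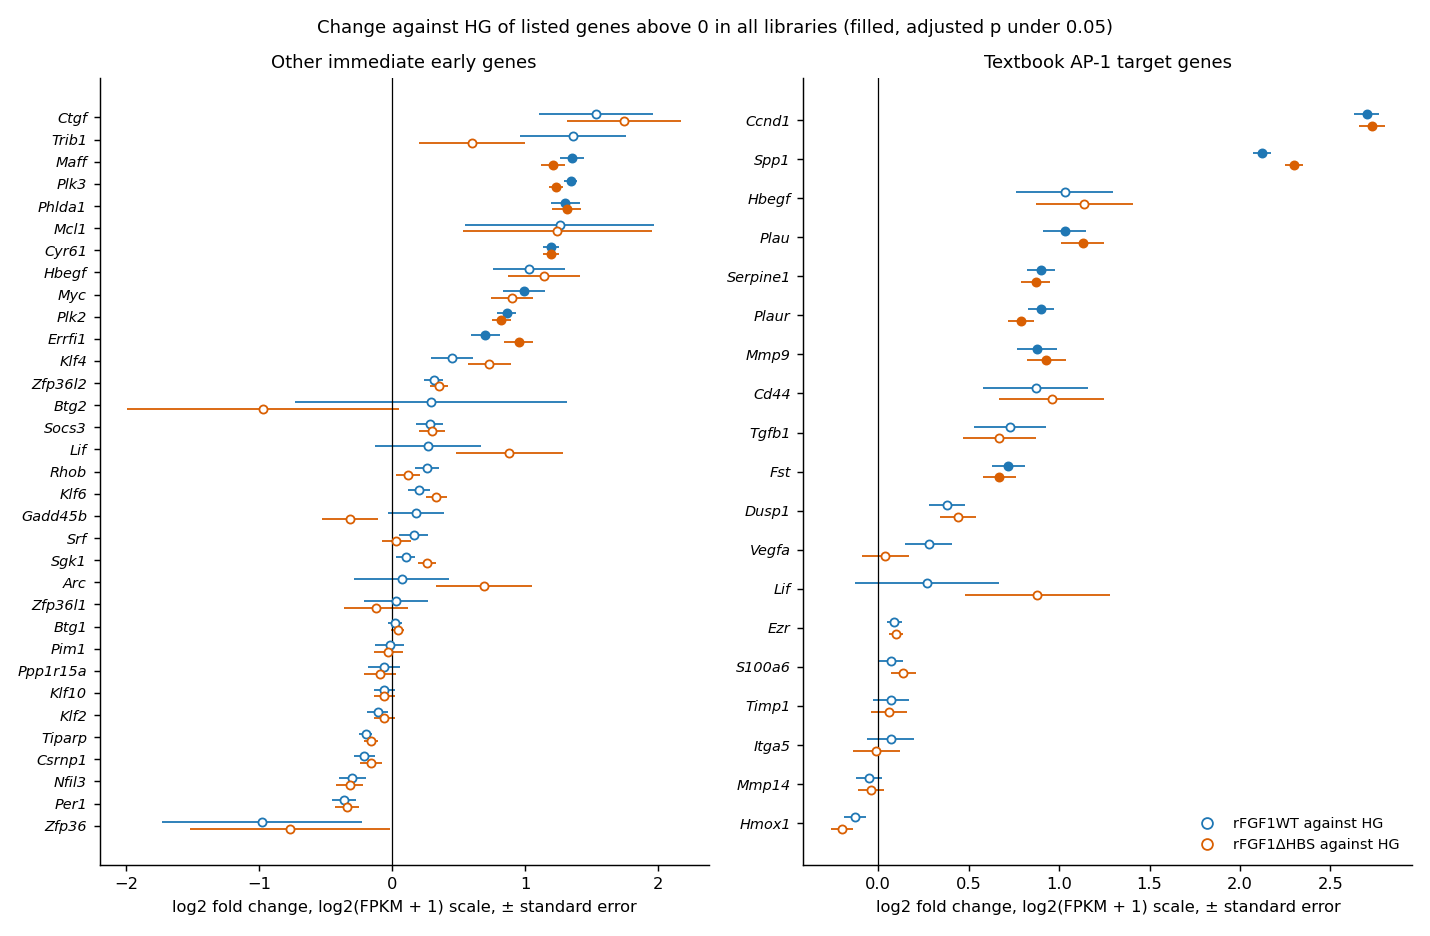
Log2 fold change against HG with its standard error (horizontal axis) for other immediate early genes (left) and textbook AP-1 target genes (right) that were tested and above 0 in all libraries, for rFGF1WT (blue) and rFGF1ΔHBS (orange). Filled points passed an adjusted p of 0.05, and all of them lie to the right of 0, with *Ccnd1* at 2.70 and 2.73.

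The lists upstream of AP-1 were short, so their calls are to be read beside the shares over all loci. Of all tested loci, 6.19% were called with rFGF1WT and 6.26% with rFGF1ΔHBS. An unadjusted limma p under 0.05 was found at 24.8% and 24.9%, and in 5 and 6 of the genes from ERK to SRF. Of 21 tested genes from ERK to SRF, only *Elk3*, a ternary complex factor that partners SRF, rose, from 10.2 and 10.8 FPKM to between 14.6 and 15.3, by 0.48 and 0.47 on the log2 scale (limma adjusted p = 0.0266 and 0.0283). *Elk3* was not called in any of the fits that left out 1 library. Of 10 tested genes of the ASK1 and JNK arm, 0 were called with either protein, and 1 had an unadjusted p under 0.05 in each. *Txn1*, the thioredoxin that binds ASK1, was at 76.3 to 90.2 FPKM in the 6 libraries, and *Map3k1* was at 15.1 to 16.3. Of 5 tested genes for turnover of Fos and Jun proteins, 0 were called and 2 had an unadjusted p under 0.05 with each protein. The highest were *Cops5*, at 12.6 to 14.2 FPKM, and *Itch*, a ligase for Jun proteins, at 10.3 and 10.0 in HG and 8.93 to 9.12 with FGF1 (adjusted p = 0.148 and 0.180). Protein levels and phosphorylation were not analysed here.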

How the data were processed

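Poly(A) RNA was sequenced with paired ends, and the authors deposited 1 table of FPKM per locus for the 6 libraries, naming edgeR for this step. The submitters' processing notes name HISAT2 2.0, StringTie 1.3.0, Bowtie 0.12.2 and the build mm8, with no roles. The table holds no positions, so positions and exon numbers came from GENCODE M21 (GRCm38), which held 99.6% of the table's Ensembl transcripts. Values below the filter (mean of at least 1 FPKM) were not tested. Fits used log2(FPKM + 1) with limma 3.58.1 in R 4.3.3 (lmFit, contrasts, eBayes with a trend, all 6 libraries, 3 residual degrees of freedom) and were tested on simulated data. There, 159 of 200 changed loci were called, with 16 false calls, and 0 loci were called in a comparison without changes. The planted changes were larger than the log2 fold changes of *Ier3* and *Fosl1*. The simulation therefore does not show how often changes of their size are called. Tables used Python 3.11.15 and pandas 2.3.3. Members and gene lists were chosen with earlier results of these data known. From each list, up to 4 called genes with the largest change and above 0 in all libraries were named, otherwise the 2 with the highest mean. *Ier2*, *Ier5*, *Ier5l*, *Rhob*, *Synpo* and *Podxl* were named after their values were seen. Alternatives changed the pseudocount, the filter, the treatment of zeros, the scaling, the libraries fitted, the empirical Bayes step, the replicate block and the 2-fold limit. The result of 1 marker gene is not reported here.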

Additional observations from a re-analysis of the deposited data

Results flagged for a closer look

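*Jund* and *Egr3* stood out because both rFGF1WT libraries lay above both HG libraries and both rFGF1ΔHBS libraries below them, as at 1.48% of loci with a mean of at least 1 FPKM and 1.19% of all loci. Mean FPKM of *Jund* was 32.4 in HG, 64.0 with rFGF1WT and 0 with rFGF1ΔHBS, and the limma test of the difference between the proteins gave an adjusted p of 0.345. *Jund* has 1 exon, a class in which 49.4% of loci were at 0 in some library. In 45.1% of that class a group had 1 replicate at 0 and 1 above it, which *Jund* did not show. Its HG replicates were 11.2-fold apart. Mean FPKM of *Egr3* was 0.246 in HG, 0.591 with rFGF1WT and 0.0591 with rFGF1ΔHBS, and that difference had an adjusted p of 0.428 when fitted without the filter.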

How the results depend on the processing

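The count of members called against HG with rFGF1WT was 1 in place of 0 after median-ratio scaling and after quantile normalization, and 0 to 1 when a library was left out. With rFGF1ΔHBS the count was 2 in place of 1 with a pseudocount of 0.1, and 0 without a filter, without a filter and with a pseudocount of 0.1, with a replicate block, and with the 2-fold limit, and it was 0 to 2 when a library was left out. Between the proteins the count was 1 in place of 0 with only the 4 libraries compared, and 0 to 1 when a library was left out. The share of single-exon loci with a 0 was 85.4% without a filter. The fits without a filter and with a pseudocount of 0.1, and without single-exon loci, were chosen after the data were seen.

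Some directions turned, most of them where the log2 fold change was near 0. *Fos* with rFGF1WT was 0.01 after median-ratio scaling and 0.03 after quantile normalization. When a library was left out, *Fos* ran from -0.31 to 0.29 with rFGF1WT, from -0.05 to 0.16 with rFGF1ΔHBS and from -0.24 to 0.37 between the proteins. In the same fits, between the proteins, *Fosb* ran from -0.14 to 0.04 and *Fosl1* from -0.21 to 0.12. *Egr1* ran from -0.13 to 0.04 with rFGF1WT and from -0.13 to 0.04 between the proteins. *Jun* ran from -1.33 to 1.44 with rFGF1WT, from -0.13 to 2.64 with rFGF1ΔHBS and from -0.02 to 2.42 between the proteins. *Junb* with rFGF1WT turned with zeros set to missing (adjusted p = 0.133) and without the second rFGF1WT library, and its adjusted p ran from 0.0121 to 0.741. Between the proteins *Junb* turned without the first rFGF1WT library, and its adjusted p ran from 0.0102 to 1.00. The cause was not tested.

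The labels do not say whether same-numbered libraries were handled together. Deviations of same-numbered libraries correlated at 0.021, 0.095 and -0.000 over 10272 loci. Whether some genes share a replicate effect was not tested. With the replicate block the limma adjusted p of *Ier3* with rFGF1ΔHBS was 0.0943. Over all loci the block gave 41, 39 and 6 calls in place of 654, 661 and 58. Other immediate early genes had 3 calls with each protein, and textbook AP-1 target genes 2 with each. The AP-1 partners, the Egr relatives, the genes from ERK to SRF and the textbook Egr1 target genes had 0 with either protein, so *Maff*, *Atf4*, *Nab2*, *Elk3* and *Fn1* were not called. With a 2-fold limit, all loci gave 107, 95 and 37 calls. Limits: 2 libraries per group leave 3 residual degrees of freedom, so a call close to the threshold depends on each library, and FPKM of single-exon genes cannot show a difference at the size of their replicate gaps.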
